A study of Mus musculus with 24 samples.

Results

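The genes described here are the mitochondrial ribosomal proteins with names of the Mrpl and Mrps series, measured by bulk RNA-seq in mouse inguinal white adipose tissue. Members were the rows of the deposited count table with such a name and an estimated count of at least 10 in at least 4 libraries. Of 35727 rows, 83 carried such a name, 5 of these were pseudogenes and were left out, and the remaining 78 all met the count rule. They comprised 49 genes named Mrpl and 29 named Mrps. The choice used no difference between groups, and all 78 members passed the filter of the test.

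The mice were males of 18 to 22 weeks of age. Their diets drew 60% of calories from fat and were enriched, per the labels, in omega-3 (n3), omega-6 (n6) or saturated fat (SFA). KO mice carried a deletion of LPCAT3, an acyltransferase that remodels membrane phospholipids, and WT mice were wild type. Although the title names mature adipocytes, no isolation of these cells is described and the promoter or construct behind the deletion is not given in the sources used here. There were 4 libraries in each of the 6 groups, KO on n3, n6 and SFA and WT on n3, n6 and SFA, with no group on a low-fat diet. The labels do not say whether each library came from a separate animal, so the p-values measure only the spread between these libraries.

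The mitochondrial ribosome translates the few mRNAs that mitochondrial DNA encodes, all of which specify subunits of the respiratory chain and ATP synthase. Its own proteins are encoded in the nucleus, made in the cytosol and imported to join ribosomal RNAs transcribed from mitochondrial DNA. Some descend from bacterial ribosomal proteins and others are found only in mitochondria. In adipose tissue, mitochondria are most abundant in brown and beige adipocytes.

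By structure, 51 members belonged to the large subunit, 29 of them with a bacterial homologue and 22 specific to mitochondria. Another 26 belonged to the small subunit, 16 with a bacterial homologue and 10 specific to mitochondria. Mrps30 and Mrps18a are named as small-subunit proteins but sit in the large subunit and were counted there. The remaining member, Mrps36, is a component of the α-ketoglutarate dehydrogenase complex rather than of the ribosome and was kept apart. The 78 genes were spread over the genome, with 11 on chromosome 11 and 8 on chromosome 17.

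Promoters are shown first, because 36 of the 69 members with a RefSeq promoter (52.2%) held at least 1 of 3 motifs known from nuclear genes of mitochondrial proteins, against 12.7% of the 27025 genes with a promoter and 23.3% of the 11315 tested genes with one. Each window runs from 250 bases before to 50 bases after the start of the gene and holds 300 bases. The letters searched, on both strands, were GCGCATGCG for NRF1, CCGGAAG for the ETS family, to which GABP belongs, and AAGATGGCG for YY1. The ETS letters stood in 26 members (37.7%), against 9.93% of all promoters and 18.1% of those of tested genes. The NRF1 letters stood in 7 members (10.1%), against 1.95% and 3.71%, and the YY1 letters in 8 (11.6%), against 1.64% and 3.13%. For comparison, the E-box CACGTG stood in 5 members (7.25%, against 8.09% and 11.1%) and the TATA letters TATAAA in 5 (7.25%, against 15.7% and 9.34%). A match says only that the letters are there.

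The NRF1 and ETS letters stood together in 3 members, Mrpl17, Mrpl22 and Mrps18b. The 4 promoters below are those of Mrps18b and Mrpl17, which had the larger average rises in KO of these 3, that of Mrps22, the motif carrier with the largest average rise, and that of Mrpl12, the member with the largest rise of all, which carries none of the 3 motifs. Capitals mark the matches, read 5′ to 3′ along the gene's strand from RefSeq on GRCm38.p6. In Mrps18b (chr17:35916391-35916690, minus strand) both matches are on the opposite strand. In Mrpl17 (chr7:105811038-105811337, minus strand) both are on the gene's own strand. Mrps22 (chr9:98601630-98601929, minus strand) carries the ETS letters close to its start, and Mrpl12 (chr11:120484387-120484686, plus strand) has no capitals.
Mrps18b: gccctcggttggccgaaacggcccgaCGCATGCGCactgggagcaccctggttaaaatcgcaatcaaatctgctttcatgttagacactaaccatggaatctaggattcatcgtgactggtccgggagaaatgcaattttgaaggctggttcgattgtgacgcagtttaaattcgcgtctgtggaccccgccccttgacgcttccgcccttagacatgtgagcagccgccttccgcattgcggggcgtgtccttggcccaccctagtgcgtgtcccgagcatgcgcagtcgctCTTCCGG
Mrpl17: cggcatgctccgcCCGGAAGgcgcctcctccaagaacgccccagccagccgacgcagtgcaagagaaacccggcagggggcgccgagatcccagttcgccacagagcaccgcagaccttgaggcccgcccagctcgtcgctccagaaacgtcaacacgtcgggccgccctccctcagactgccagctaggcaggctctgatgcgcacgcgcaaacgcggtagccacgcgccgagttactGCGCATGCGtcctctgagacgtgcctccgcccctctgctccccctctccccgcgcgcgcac
Mrps22: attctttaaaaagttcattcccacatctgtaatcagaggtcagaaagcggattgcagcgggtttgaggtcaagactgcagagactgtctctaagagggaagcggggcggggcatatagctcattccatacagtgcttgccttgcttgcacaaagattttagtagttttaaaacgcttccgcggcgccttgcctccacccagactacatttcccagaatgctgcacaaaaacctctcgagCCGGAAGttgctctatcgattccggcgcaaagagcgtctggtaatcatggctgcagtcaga
Mrpl12: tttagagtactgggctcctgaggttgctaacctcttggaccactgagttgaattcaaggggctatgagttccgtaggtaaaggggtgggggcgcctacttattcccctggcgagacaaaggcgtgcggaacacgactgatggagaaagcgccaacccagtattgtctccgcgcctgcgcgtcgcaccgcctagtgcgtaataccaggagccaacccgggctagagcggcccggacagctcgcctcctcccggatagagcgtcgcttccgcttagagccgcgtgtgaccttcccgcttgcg

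Carrying a motif went with little difference in response. The median log2 fold change in KO averaged over diets was 0.22 with the ETS letters and 0.21 without, 0.25 with the NRF1 letters and 0.20 without, and 0.17 with the YY1 letters and 0.21 without. No test was made of these differences.

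Library totals ran from 43.6 to 62.1 M estimated counts with a median of 50.2 M, and the lowest count of any member in any library was 105. Lpcat3, the targeted gene, was lower in KO than in WT on all 3 diets (53.7 to 61.3 CPM in KO against 112 to 119 in WT on n3, 47.7 to 50.1 against 66 to 72.9 on n6, 70.8 to 81 against 97.8 to 129 on SFA), and its RNA remained detectable in every KO library. CPM here is the count scaled to library size after TMM scaling, which sets libraries on a scale where the bulk of genes match. TPM, the authors' second unit, is corrected for transcript length and sums to the same total in every library. All fold changes are log2 ratios from edgeR's quasi-likelihood fit over all 24 libraries, and called means a Benjamini-Hochberg adjusted p under 0.05 over all 15259 tested genes.

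Per length, the members covered a 39.9-fold range of abundance. Their mean TPM over all libraries had a median of 54.4, with quartiles of 39.4 and 65.2. Large-subunit and small-subunit proteins had nearly equal medians, at 53.9 and 52.5 TPM. The highest member was Mrps6, a small-subunit protein, at 303 TPM (268 to 343 over libraries). Next came Mrps21 at 222 TPM, from the small subunit, and Mrpl33 at 199 TPM, from the large. The lowest were Mrpl19 at 7.6, Mrpl23 at 8.48 and Mrpl47 at 8.66 TPM, all from the large subunit. Mrps6 shares exons on its own strand with Slc5a3, so part of its count could belong to that gene. Mrpl23 has a pseudogene copy that was counted in its own row and could take reads from it.

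**Figure D1:**
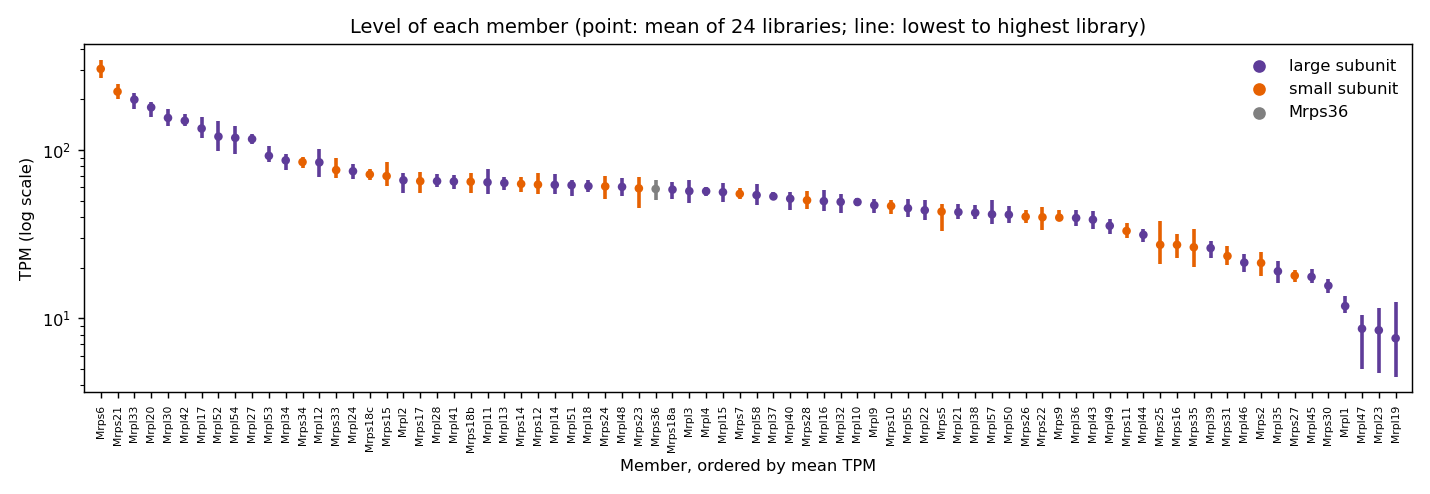
TPM of each of the 78 members on a log axis, with a point for the mean of the 24 libraries and a line from the lowest to the highest library, ordered by mean TPM and coloured by subunit (Mrps36 in grey). Mrps6, with a mean of 303 TPM, lies 39.9-fold above Mrpl19 at 7.6 TPM, and members of both subunits are mixed along most of the range.

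KO tissue held more mitoribosomal protein RNA than WT tissue on every diet when libraries were set to a common scale by their counts. On n3, 73 of 78 members rose in KO and 0 fell, against 20.1% of all tested genes that were called higher and 18.7% called lower. On n6, 43 rose and 0 fell, against 21% of all tested genes called higher and 22.1% lower. On SFA, 39 rose and 0 fell, against 20% and 19.9%. In the average over the 3 diets, 70 rose and 0 fell, against 27.8% and 29.8%. For the counts of 0 falls, edgeR's unadjusted p was under 0.05 with a lower level in 1 member on n6 and in 0 members on n3, on SFA and in the average. DESeq2 called 73, 49 and 42 members higher on n3, n6 and SFA and 71 in the average, and 0 lower in each. Of all 15259 tested genes it called 3287, 3418 and 3251 higher, and 4490 in the average.

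The rises were small. The median member was higher in KO by 0.29 on the log2 scale on n3 (1.22-fold), 0.16 on n6 (1.12-fold) and 0.15 on SFA (1.11-fold), and 0.21 in the average (1.16-fold), while the median of all tested genes lay between -0.03 and 0.00. Estimates on n3 ran over members from 0.06 to 0.61, and all 78 were positive. On n6 they ran from -0.17 to 0.51 with 71 positive, and on SFA from -0.13 to 0.46 with 72 positive. The 78 estimates come from the same libraries and are not independent of each other.

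The TPM gave another direction for many members, and on that scale the median of all genes was itself lower in KO by 0.19 on n3, 0.16 on n6 and 0.12 on SFA (log2(TPM + 1), limma). On it 19 members were called higher and 2 lower on n3, 9 higher and 17 lower on n6, and 10 higher and 12 lower on SFA. Of all tested genes, 6.01% were then called higher and 49.5% lower on n3, 7.78% and 45.1% on n6, and 6.96% and 35.7% on SFA. In the average 19 members were called higher and 18 lower, against 9.09% and 60.7% of all genes. There were 19 members called higher in the average by both units, and 11 called higher by counts and lower by TPM. The median member thus stood at 0.05, -0.05 and -0.03 on n3, n6 and SFA, which is 0.24, 0.11 and 0.10 above the median gene of the same scale. With TPM centred on the median gene of each library, a scaling added after seeing the data, 68, 34 and 32 members were called higher on n3, n6 and SFA (of all genes 23.7%, 23% and 20.7%) and 67 in the average (34.5%). The rises above are thus changes relative to the bulk of tested genes. Summed over members, TPM averaged 5058 ± 102 in KO against 4862 ± 113 in WT on n3, 4770 ± 65 against 4971 ± 40 on n6, and 4952 ± 91 against 5053 ± 86 on SFA (SD, n = 4 each).

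The mean log2 CPM over members shows the groups library by library. On n3 it was 4.80, 4.85, 4.91 and 4.66 in KO against 4.52, 4.55, 4.47 and 4.51 in WT. On n6 it was 4.57, 4.58, 4.61 and 4.57 in KO against 4.39, 4.42, 4.37 and 4.43 in WT. On SFA it was 4.74, 4.65, 4.81 and 4.79 in KO against 4.51, 4.62, 4.60 and 4.65 in WT. On n3 and n6 the genotypes did not overlap, while on SFA the lowest KO library lay level with the highest WT library to 2 decimals. Single members varied little between libraries of a group, with a median SD of 0.086 on the log2 scale. All 4 KO libraries lay above all 4 WT libraries for 59 members on n3, 51 on n6 and 26 on SFA, which compares with 17.2%, 19.4% and 18% of all tested genes.

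A few libraries stood low or high for nearly the whole family at once. Replicate 4 of KO on n3 was the lowest of its group for 73 of 78 members, replicate 2 of KO on SFA for 70, and replicate 1 of WT on SFA for 60. Replicate 3 of KO on n3 was the highest of its group for 56. The mean log2 CPM of 10 adipocyte marker genes was also lowest in its group in replicate 4 of KO on n3 (10.30, against 10.38 to 10.64 in the other 3) and in replicate 2 of KO on SFA (10.20, against 10.27 to 10.49). In WT on SFA it was lowest in replicate 3 (10.65) and not in replicate 1 (10.72). The mean of 8 brown and beige adipocyte markers was lowest of its group in all 3 of these low libraries. It was 3.11 in replicate 4 of KO on n3 (3.35 to 3.52 in the others, with replicate 3 the highest), 3.00 in replicate 2 of KO on SFA (3.07 to 3.14) and 1.89 in replicate 1 of WT on SFA (2.51 to 2.63). Replicate 3 of WT on n3, lowest for 40 members, had the highest brown and beige mean of its group (2.79). Replicate 3 of WT on n6, lowest for 39 members, had 1.32 against 1.02 in replicate 1. In replicate 2 of KO on SFA, B cell (1.82) and mammary gland markers (-0.11) were the highest of the group. In replicate 1 of WT on SFA both were the lowest (-1.27 and -3.21). In replicate 4 of KO on n3, B cell markers were the highest (-0.24) and gland markers were not (-1.39). The part of any of these lists was not tested.

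**Figure D2:**
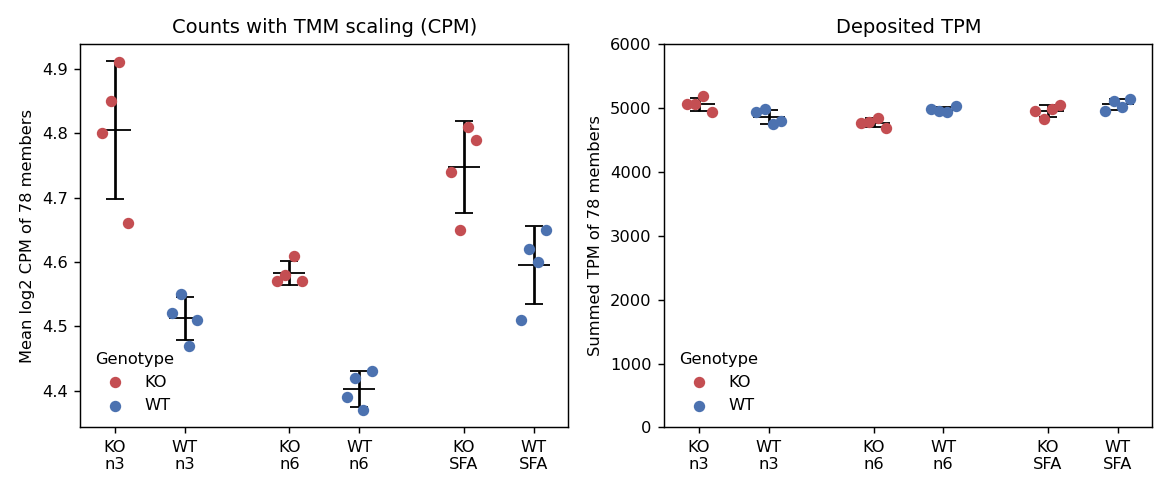
Mean log2 CPM of the 78 members (left) and their summed TPM (right) in each of the 24 libraries, with KO left of WT on each diet and bars for the group mean and SD. By CPM the 4 KO libraries lie above the 4 WT libraries on n3 and n6, whereas by summed TPM the KO mean is above WT on n3 only (5058 against 4862) and below it on n6 (4770 against 4971) and SFA (4952 against 5053).

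Across diets, 35 members were called higher in KO on all 3, 12 on 2 and 26 on n3 alone, while 5 (Mrpl23, Mrpl24, Mrpl52, Mrpl54 and Mrps25) were called on none. No member was called on n6 or SFA alone. The same overlap was not counted over all tested genes, so these counts have no background beside them. The calls on n3 alone do not by themselves show a larger effect there. The difference between the effects was tested separately and is given after the single members.

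**Figure D3:**
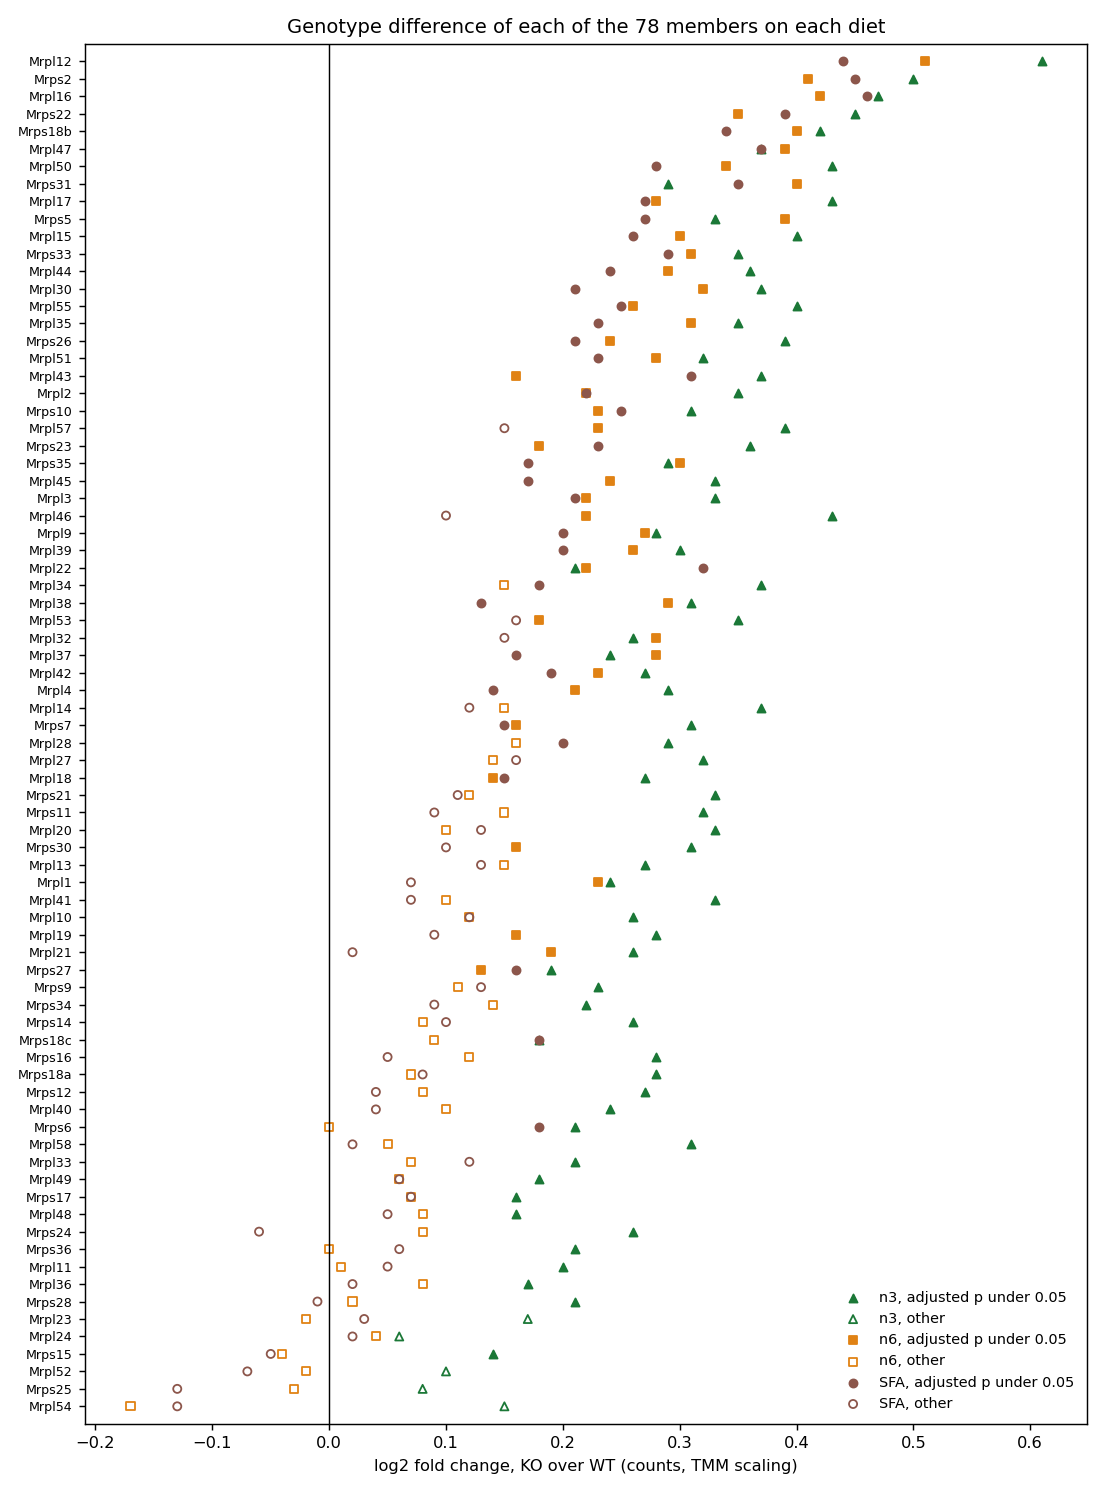
Log2 fold change of each member in KO against WT from the edgeR fit on counts, with 1 row per member ordered by the average over diets, a marker shape and colour for each diet and filled markers for called members. On n3 all 78 markers lie above 0, whereas on the TPM scale 2 members were called lower on n3, 17 on n6 and 12 on SFA.

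By counts, rises were called in both subunits. Of all tested genes, 20.1%, 21% and 20% were called higher in KO on n3, n6 and SFA. Of the 29 large-subunit proteins with a bacterial homologue, 27 rose in KO on n3, 17 on n6 and 15 on SFA, with medians of 0.29, 0.19 and 0.15. Of the 22 large-subunit proteins specific to mitochondria, 20 rose on n3, 14 on n6 and 10 on SFA (medians 0.31, 0.20 and 0.14). Of the 16 small-subunit proteins with a bacterial homologue, all 16 rose on n3 but 4 on n6 and 6 on SFA (0.27, 0.10 and 0.11). The 4 of 16 on n6 lay near the 21% of all tested genes. Of the 10 small-subunit proteins specific to mitochondria, 9 rose on n3, 8 on n6 and 8 on SFA (0.32, 0.27 and 0.22). The classes were not tested against each other. Mrps36, which is outside the ribosome, was called on n3 (0.21) and stood at -0.00 on n6 and 0.06 on SFA.

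The member with the largest average rise was Mrpl12, a large-subunit protein of the stalk that contacts translation factors, which has also been described as a partner of the mitochondrial RNA polymerase (chr11:120484613-120489065, plus strand, GRCm38). It had 70.3, 67.9, 75.8 and 60.8 CPM in KO on n3 against 45.6, 47.2, 43.8 and 43.6 in WT. On n6 it had 53.5, 56.5, 57.1 and 55.6 CPM in KO against 38.8, 38.8, 37.5 and 41 in WT, and on SFA 68.5, 60.3, 69.6 and 69.8 in KO against 44.4, 50.6, 50.8 and 52.5 in WT. Every KO library was above every WT library of its diet. The log2 fold changes were 0.61, 0.51 and 0.44 on n3, n6 and SFA, and 0.52 in the average (SE 0.034, edgeR adjusted p = 6.81e-12).

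Mrps2, a small-subunit protein with a bacterial homologue (chr2:28468066-28471178, plus strand), gave the smallest p of the family. Its CPM was 29, 28.3, 30.4 and 28.5 in KO on n3 against 21.5, 21.2, 20.2 and 19.1 in WT. On n6 the KO libraries held 25.2, 25.3, 25.4 and 26 CPM against 19.8, 19.7, 18.2 and 19.2 in WT, and on SFA 29.8, 28.3, 30.2 and 29.9 against 21.1, 20.3, 22.6 and 22.4. Even the lowest KO library of the 12, on n6, lay above the highest WT library of any diet. The average difference was 0.45 (SE 0.025, edgeR adjusted p = 2.93e-13), with 0.50, 0.41 and 0.45 on n3, n6 and SFA.

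Mrpl16, a large-subunit protein with a bacterial homologue (chr19:11770391-11774960, plus strand), changed by about as much on each diet. It had 32.8, 32.9, 33.4 and 30.1 CPM in KO on n3 against 22.1, 24.8, 22.5 and 24 in WT. On n6 it had 28.1, 31.6, 26.5 and 27 in KO against 21.1, 21.5, 20.1 and 21.7 in WT, and on SFA 32.4, 32.3, 34.4 and 34.8 in KO against 22.5, 25.3, 23.7 and 26.1 in WT. As for Mrps2, no KO library of any diet reached down to a WT library. The fold changes were 0.47, 0.42 and 0.46, with an average of 0.45 (SE 0.032, edgeR adjusted p = 3.61e-11).

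Mrps18b belongs to a trio of paralogues that occupy different places in the ribosome. It is a small-subunit protein (chr17:35910379-35916389, minus strand) whose promoter with the NRF1 and ETS letters is printed above. It had 36.1, 39.8, 39.8 and 33.5 CPM in KO on n3 against 28.1, 28.1, 27.5 and 27.9 in WT. On n6 it had 31.2, 30.4, 35.1 and 33.5 in KO against 25.4, 23.3, 24.9 and 25.1 in WT, and on SFA 37.3, 31.5, 40 and 36.6 in KO against 26.8, 27.9, 30.1 and 30 in WT. The groups did not overlap on any diet, and the average difference was 0.39 (SE 0.037, edgeR adjusted p = 4.88e-09). Its paralogue Mrps18a, of the large subunit, rose on n3 (0.28) and had estimates of 0.07 on n6 and 0.08 on SFA that were not called, and by TPM its n6 estimate was -0.13. The other paralogue, Mrps18c of the small subunit, rose by counts on n3 and SFA by 0.18 on each, with 0.09 on n6 not called, whereas its TPM estimates were -0.07, -0.13 and -0.01 on n3, n6 and SFA.

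Mrps22 and Mrpl50 were chosen after their values were seen. Mrps22, a small-subunit protein found only in mitochondria (chr9:98588730-98601660, minus strand), rose by 0.45, 0.35 and 0.39 on n3, n6 and SFA. It had 28.1, 27, 29.9 and 25 CPM in KO on n3 against 20.7, 21.7, 19.8 and 18.4 in WT. Mrps31, of the same class, rose by 0.29, 0.40 and 0.35. Mrpl17, a large-subunit protein whose promoter carries the NRF1 and ETS letters, rose by 0.43, 0.28 and 0.27. It had 53, 56.6, 58.5 and 48.3 CPM in KO on n3 against 41, 41.3, 39 and 39.6 in WT. Mrps5 rose by 0.33, 0.39 and 0.27, and Mrpl50, a large-subunit protein of mitochondria, by 0.43, 0.34 and 0.28. Mrpl47 rose by 0.37, 0.39 and 0.37 on counts, but its count per TPM, a measure of effective transcript length, differed between genotypes on SFA by 0.36 (log2), and on the TPM scale its SFA estimate was -0.14. For the typical member this length measure hardly differed (medians of 0.003, 0.010 and 0.006 on n3, n6 and SFA), while for Mrpl19 it was lower in KO by 0.26, 0.37 and 0.59.

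**Figure D4:**
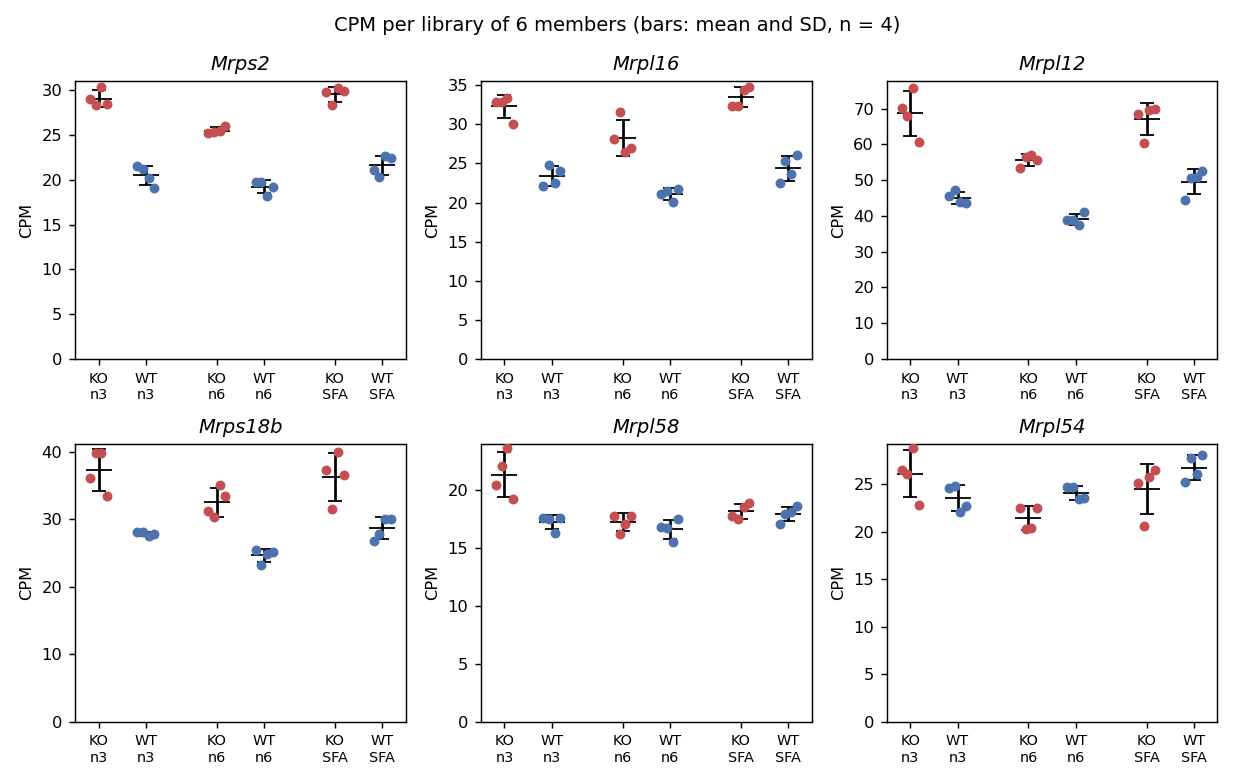
CPM of 6 members in each library, with KO left of WT on n3, n6 and SFA and bars for the group mean and SD. Mrps2, Mrpl16, Mrpl12 and Mrps18b have all 4 KO libraries above all 4 WT libraries on every diet, Mrpl58 has KO apart from WT on n3 (19.2 to 23.6 against 16.3 to 17.6 CPM) and overlapping it on n6 and SFA, and Mrpl54 was not called on any diet.

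Exceptions were few. Mrpl54, a large-subunit protein of mitochondria (chr10:81264713-81266934, minus strand), had 26.5, 26.1, 28.8 and 22.8 CPM in KO on n3 against 24.6, 24.8, 22.1 and 22.7 in WT. On n6 it had 22.5, 20.3, 20.4 and 22.5 in KO against 24.7, 24.7, 23.4 and 23.5 in WT, and on SFA 25.1, 20.6, 25.7 and 26.5 in KO against 25.2, 27.7, 26 and 28 in WT. All 4 KO libraries were thus below the WT libraries on n6, which was so for no other member, and the groups overlapped on n3 and SFA. None of its estimates was called: 0.15 on n3 (edgeR adjusted p = 0.105), -0.17 on n6 (0.0646) and -0.13 on SFA (0.159). By TPM, in contrast, Mrpl54 was called lower in KO in the average over diets (-0.25, limma adjusted p = 1.27e-07), where counts gave -0.05 (edgeR adjusted p = 0.321) and the median gene stood at -0.16 by TPM.

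The difference between diets in the effect of genotype was called for 1 member. The edgeR interaction test asks whether the effect of KO differs among the 3 diets. It called 1 of 78 members, against 6.44% of all tested genes, and 15 members had an unadjusted p under 0.05. DESeq2 called 4 members, against 1975 of all 15259 tested genes. The member called by edgeR was Mrpl58, a peptidyl-tRNA hydrolase of the large subunit that frees stalled mitochondrial ribosomes (chr11:115403752-115412674, plus strand). It had 20.4, 22.1, 23.6 and 19.2 CPM in KO on n3 against 17.6, 17.5, 16.3 and 17.6 in WT. On n6 it had 17.8, 16.2, 17.1 and 17.8 in KO against 16.8, 16.7, 15.5 and 17.5 in WT, and on SFA 17.8, 17.5, 18.5 and 18.9 in KO against 17.1, 17.9, 18.1 and 18.6 in WT. The genotypes were apart on n3 and overlapped on n6 and SFA. Its fold change was 0.31 on n3 (SE 0.055, edgeR adjusted p = 0.000117), 0.05 on n6 and 0.02 on SFA, with an adjusted interaction p of 0.0403. Its adjusted p ran from 0.00601 to 0.276 under the other settings tried. The count of members was 18 without replicate 4 of KO on n3, 2 without replicate 4 of KO on SFA or replicate 2 of WT on n3, and 0 without any 1 of replicates 1 to 3 of KO on n3, 2 of KO on n6, 1 and 2 of KO on SFA, 1, 3 and 4 of WT on n3, 1 and 2 of WT on n6 and 2 to 4 of WT on SFA. The 6.44% of all tested genes belongs to the fit on all libraries. The counts of all genes called in these other fits are not given here.

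The next smallest interaction p-values, none of them called, belonged to Mrpl46 (0.43, 0.22 and 0.10 on n3, n6 and SFA, edgeR adjusted p = 0.0621), Mrps24 (0.26, 0.08 and -0.06, 0.0722), Mrpl54 (0.0823) and Mrpl43 (0.37, 0.16 and 0.31, 0.119). Taken pair by pair, the effect of KO on n3 exceeded that on SFA by a median of 0.14, with a positive difference in 74 of 78 members. Of the members, edgeR called 0 (0.819% of all genes), with 29 at an unadjusted p under 0.05. DESeq2 called 3 members here, against 652 of all 15259 tested genes. The effect on n3 exceeded that on n6 by a median of 0.12, positive in 71 members, and Mrpl58 alone was called (0.26, SE 0.078, edgeR adjusted p = 0.0423), against 9.1% of all genes. Between n6 and SFA the median difference was 0.03 and edgeR called 0 members (0.898% of all genes), with 3 at an unadjusted p under 0.05. DESeq2 called 0 members there, against 409 of all 15259 tested genes. These 3 differences share their groups.

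Diet moved the family within each genotype, with n6 at the low end. On n6 against SFA, 38 members fell in KO and 57 in WT and 0 rose in either, against 13.8% of all tested genes called lower and 8.92% higher in KO, and 13.1% lower and 11.6% higher in WT. The medians were -0.16 in KO (0.895-fold) and -0.19 in WT (0.876-fold), and all 78 estimates were negative in both genotypes by counts, whereas by TPM the medians were -0.02 and -0.01 and 5 and 6 members were called. On that scale the median of all genes was higher on n6 by 0.11 in KO and 0.14 in WT. The direction of those 5 and 6 calls is not given here. With log2(TPM + 0.1), which also called 5 and 6 members, 3337 of 14932 genes were higher on n6 and 484 lower in KO. In WT they were 5392 and 529. There were 35 members called lower in both genotypes, which is 92.1% of the KO calls and 61.4% of the WT calls. This overlap was not counted over all tested genes. The count in KO depended on single libraries: it was 16 without replicate 3 of KO on SFA, 21 without replicate 4, 22 without replicate 1 of KO on n6 and 25 without replicate 4. It was 17 with the marker levels of B cells, muscle and gland as covariates. It was 8 in a fit without replicates 1 and 2 of KO on n6, high in muscle or B cell markers, and replicate 3 of WT on SFA. That fit has fewer libraries of KO on n6, and its count over all tested genes is not given here. In WT the count of members was 31 without replicate 4 of WT on SFA. With the marker covariates, 1449 of all 15259 tested genes were called lower in KO, against 2113 without them. For the counts of 0 rises, 0 members had an unadjusted p under 0.05 with a higher level, and DESeq2 called 45 members lower in KO, 62 in WT and 0 higher in either. Of all 15259 tested genes it called 2302 lower in KO and 2300 in WT.

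The largest fall on n6 in KO was that of Mrps6, which had 95.2, 99.4, 98.2 and 95.3 CPM on n6 against 132, 116, 129 and 129 on SFA. The groups did not overlap (log2 fold change -0.38, SE 0.063, edgeR adjusted p = 0.000257). Mrpl43, a large-subunit protein found only in mitochondria, followed with -0.34 (edgeR adjusted p = 5.63e-05). It had 23.2, 25.5, 26.7 and 24.9 CPM on n6 against 31.5, 29.9, 33.9 and 31.5 on SFA, again without overlap. In WT the largest falls were those of Mrpl12 (-0.35, edgeR adjusted p = 0.000287) and Mrpl14 (-0.33, 0.000908), both of the large subunit. The per-library values of Mrpl12 above show no overlap of n6 with SFA in either genotype.

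On n3 against n6, 67 members rose in KO and 13 in WT and 0 fell in either, against 15.8% of all tested genes called higher and 10.3% lower in KO, and 9.82% higher and 8.61% lower in WT. The medians were 0.21 in KO, with all 78 estimates positive, and 0.11 in WT by counts, while by TPM the median was 0.08 in KO and negative (-0.02) in WT, with all genes at -0.10 and -0.09. Mrpl14 rose the most in KO, with 16.6, 18.9, 17.9 and 14.9 CPM on n3 against 13.5, 13.3, 12.3 and 12.8 on n6 (0.39, SE 0.065, edgeR adjusted p = 0.00097). Mrpl53, a large-subunit protein of mitochondria, had 0.35 (0.00187). In WT the largest rises were those of Mrps5 (0.25, edgeR adjusted p = 0.000922), with 27, 26.1, 27.3 and 27.2 CPM on n3 against 22.2, 23, 21.2 and 24.2 on n6, and Mrps31 (0.23, 0.00708). In KO, 8 of 12 skeletal muscle markers fell on n3 against n6 (median -3.13), as did 5 of 6 endothelial markers (median -0.53), and their part was not tested beyond the covariates. The count of members in KO was 9 with B cell, muscle and gland marker levels as covariates and 37 without replicate 3 of KO on n3. It was 23 in the fit without replicates 1 and 2 of KO on n6, which has fewer libraries in that group. The count in WT was 8 without replicate 2 of WT on n3 and 7 without replicate 3 of WT on n6. With the covariates, 410 of all 15259 tested genes were called higher in KO, against 2405 without them. For the counts of 0 falls, 0 members had an unadjusted p under 0.05 with a lower level, and DESeq2 called 67 higher in KO, 13 in WT and 0 lower in either. Of all 15259 tested genes it called 2516 higher in KO and 1608 in WT.

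The n3 and SFA diets were close. On n3 against SFA, 1 member rose in KO (Mrpl58, 0.23, edgeR adjusted p = 0.0356) and 0 fell, against 0.826% of all tested genes called higher and 0.636% lower. In WT edgeR called 0 members, against 0.0852% of all genes higher and 0.059% lower, with 19 at an unadjusted p under 0.05, all lower on n3. DESeq2 called 2 members lower in WT, against 184 of all 15259 tested genes. In KO, 8 members had an unadjusted p under 0.05 with a higher level and 1 with a lower one. DESeq2 called 2 members higher and 0 lower in KO, against 327 and 260 of all tested genes. The median members stood at 0.05 in KO and -0.08 in WT. The count in KO was 6 without replicate 4 of KO on n3 and 0 without any 1 of replicates 1 and 2 of KO on n3 and 1 to 3 of KO on SFA, and that in WT was 1 without replicate 2 of WT on n3. Pairs of these diet comparisons share a group of libraries in each genotype.

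Other genes of mitochondrial translation were described by fixed lists beside the members. The counts of these lists, here and below, stand beside 20.1%, 21% and 20% of all tested genes called higher on n3, n6 and SFA. Called lower were 18.7%, 22.1% and 19.9%. The lists are short, so a few genes decide such a share. Of 5 mitoribosomal proteins with names outside the Mrpl and Mrps series, 5 rose in KO on n3, 3 on n6 and 2 on SFA. Among them Ptcd3, a small-subunit protein with RNA-binding repeats, rose by 0.60, 0.66 and 0.61 on n3, n6 and SFA, and its average estimate was above that of every member (0.62, SE 0.027, edgeR adjusted p = 5.66e-15). Dap3, a GTP-binding protein of the small subunit, rose by 0.27 on n3 and by 0.13 on n6 and on SFA. Gadd45gip1, of the large subunit, rose by 0.35 on n3 and 0.22 on n6, and its SFA estimate of 0.07 was not called.

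Factors that build the ribosome and use it were also mostly higher in KO by counts. Of 24 assembly factors, 15 rose on n3, 14 on n6 and 11 on SFA, with medians of 0.20, 0.19 and 0.11 and 1 lower on n6. Trub2, a pseudouridine synthase, had 0.58, 0.54 and 0.87, and Mrm3, a methyltransferase of the large ribosomal RNA, 0.74, 0.57 and 0.40. Of 15 translation and mRNA factors, 11, 12 and 11 rose (medians 0.27, 0.24 and 0.24), with Lrpprc, which stabilises mitochondrial mRNAs, at 0.47, 0.52 and 0.41 and the elongation factor Gfm1 at 0.41, 0.40 and 0.43. Of 20 mitochondrial tRNA synthetases and related enzymes, 13, 12 and 12 rose, with 1 lower on n6 and on SFA (medians 0.22, 0.20 and 0.19). Aars2, the alanyl-tRNA synthetase, had 0.33, 0.32 and 0.31.

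The templates and the regulators were uneven. Of the 13 protein genes of mitochondrial DNA, 10 rose on n3, 13 on n6 and 10 on SFA, with medians of 0.66, 1.02 and 0.64 that stood above those of the members. Poly-A capture takes up most of these mRNAs through short tails of their own. Between diets their medians were -0.25 in KO and -0.57 in WT on n6 against SFA, and 0.23 in KO and 0.56 in WT on n3 against n6. Of 10 genes for the copying and transcription of mitochondrial DNA, 5, 6 and 4 rose, beside 20.1%, 21% and 20% of all tested genes. Among these 10, Tfam, which packages mitochondrial DNA, stood at 0.27, 0.28 and 0.22. Of 10 regulators of mitochondrial biogenesis, 4, 7 and 6 rose and 1 fell on each diet. Ppargc1a, a coactivator of mitochondrial biogenesis, had 0.76, 0.74 and 0.73, and the nuclear receptor Esrra 0.46, 0.42 and 0.46. Nrf1, Gabpa and Yy1, factors of the 3 promoter motifs, had small estimates. Nrf1 stood at -0.02, 0.14 and 0.05, Gabpa at 0.05, 0.12 and 0.09 and Yy1 at 0.05, 0.03 and 0.08 on n3, n6 and SFA, of which the n6 values of Nrf1 and Gabpa and the SFA value of Yy1 were called. Gabpb1, for another subunit of GABP, averaged 15.7, 17.5 and 16.8 CPM in KO on n3, n6 and SFA against 15.2, 14.6 and 13.9 in WT. Myc, of the same list of regulators, averaged 5.61, 6.69 and 5.65 CPM in KO against 7.2, 8.91 and 7.69 in WT. Of 12 outer-membrane and import genes, 12, 9 and 10 rose (medians 0.33, 0.22 and 0.28), among them Hspa9, the import motor chaperone, at 0.52, 0.42 and 0.46.

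**Figure D5:**
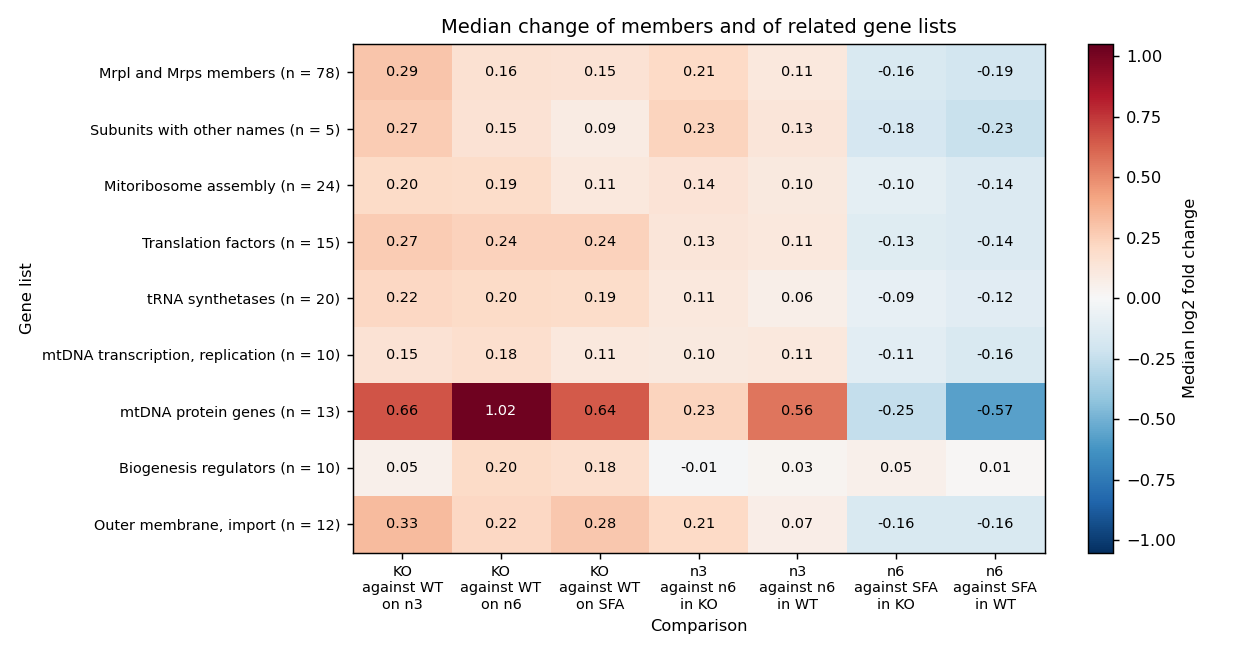
Median log2 fold change (colour and printed value) of the members and of 8 lists of related genes, 1 row each, in KO against WT on n3, n6 and SFA and in the diet comparisons within each genotype, from the edgeR fit on counts. The members' medians in KO against WT (0.29, 0.16 and 0.15) lie below those of the protein genes of mitochondrial DNA (0.66, 1.02 and 0.64), whereas on the TPM scale they were 0.05, -0.05 and -0.03.

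Markers of cell types moved with genotype. Of all tested genes, 20.1%, 21% and 20% were called higher in KO on n3, n6 and SFA, and 18.7%, 22.1% and 19.9% lower. Of 8 brown and beige adipocyte markers, 6 rose in KO on n3, 8 on n6 and 6 on SFA, with medians of 0.75, 1.80 and 0.82. Their mean log2 CPM ran from 3.11 to 3.52 in KO against 2.45 to 2.79 in WT on n3, 2.84 to 3.19 against 1.02 to 1.84 on n6, and 3.00 to 3.14 against 1.89 to 2.63 on SFA. Of 12 macrophage markers, 7, 10 and 11 fell on n3, n6 and SFA (medians -0.33, -0.46 and -0.47). Their mean log2 CPM ran from 5.69 to 6.13 in KO against 6.14 to 6.41 in WT on n3, 5.79 to 6.21 against 6.14 to 6.68 on n6, and 5.41 to 5.80 against 6.04 to 6.25 on SFA. Of 10 general adipocyte markers, which define the labelled tissue and were abundant in all libraries, 4 rose and 3 fell on n3, 5 and 3 on n6, and 3 and 3 on SFA (medians 0.14, 0.13 and -0.01). Their estimates ran from -1.99 to 0.63 on n3, -2.78 to 0.60 on n6 and -3.24 to 0.32 on SFA. The mean log2 CPM of these 10 ran from 10.30 to 10.64 in KO against 10.48 to 10.65 in WT on n3. On n6 it ran from 10.21 to 10.39 against 10.39 to 10.59, and on SFA from 10.20 to 10.49 against 10.65 to 10.78. Of 8 stromal progenitor markers, 4 fell on n3, 4 on n6 and 6 on SFA (medians -0.20, -0.23 and -0.26). Of 6 endothelial markers, 2 fell on n3, 1 rose on n6 and 5 rose on SFA (medians -0.24, 0.22 and 0.37). Of 9 tested mammary gland markers, 4 rose on n3, 0 were called on n6 and 1 rose on SFA (medians 2.71, 0.54 and 1.06), and their mean log2 CPM ran from -1.91 to -0.48 in KO against -3.40 to -3.19 in WT on n3. In bulk tissue, fewer cells of a type and less RNA per cell cannot be told apart, and the part of these cell types in the members' changes was not tested.

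The median changes of the brown and beige markers were ordered over diets otherwise than those of the members. The difference among diets was called for 1 member only, and how the markers and the members relate was not tested. The markers' median was largest on n6, at 1.80, where the members' median was 0.16, and was 0.75 on n3, where the members' median was 0.29. Within WT, the same markers fell on n6 against SFA (6 of 8 called, median -1.10), as the members did, while in KO 2 were called lower (median -0.08) beside 38 members. B cell markers rose in KO on n6 (6 of 10 called, median 2.53) and skeletal muscle markers were high in some KO libraries on n6. With B cell, muscle and gland marker levels as covariates, 60, 46 and 38 members were called on n3, n6 and SFA, and with 3 libraries rich in B cell or muscle RNA left out 73, 35 and 33. The 3 libraries were replicates 1 and 2 of KO on n6 and replicate 3 of WT on SFA. That fit has fewer libraries in those groups, and its counts over all tested genes are not given here. With the covariates, 2263, 2700 and 2871 of all 15259 tested genes were called higher, against 3065, 3206 and 3057 without them.

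Neighbouring genes bear on the counts of single members. For 18 of 78 members (23.1%) another protein-coding gene starts upstream on the opposite strand, at most 1000 bases before the member's start. The share was 9.11% among 14461 tested protein-coding genes. Opposite-strand genes that overlap the member at its start, such as the pair Mrpl46 and Mrps11, were not counted. Of these 18 partners, 9 rose in KO in the average over diets, 3 fell and 6 were not called, with a median of 0.08. Of all tested genes, 27.8% were called higher in that average and 29.8% lower. Mrpl32 and its partner Psma2, a proteasome subunit, start 75 bases apart, and Psma2 stood at 0.27. Mrpl49 and Fau, a cytosolic ribosomal protein gene, start 59 bases apart, and Fau stood at -0.13. Exons of 33 members overlap those of another gene, 28 on the opposite strand and 8 on the same, and it is not given in the sources used here whether the libraries keep strand. Among these are Mrpl12, Mrpl43, Mrpl46, Mrpl58, Mrps18b and Mrps24, while Mrps2, Mrpl16, Mrpl17, Mrpl50, Mrps5 and Mrps22 overlap no exon of another gene.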

How the data were processed

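Inguinal white adipose tissue of KO and WT mice on 3 diets was sequenced after poly-A capture, per the labels' protocols. The submitters' processing notes name fastp 0.23.2, Salmon and the build mm10. No version of Salmon, annotation or strand setting is given in the sources used here. The authors deposited 1 table of estimated counts per gene and 1 of TPM, each with 35727 rows and 24 libraries. The deposited estimated counts are not whole and were rounded for the tests, and the deposited TPM are scaled within each library to a common total. Names were matched to GENCODE M21 (GRCm38) for 34374 rows.

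The filter filterByExpr (at least 10 counts, at least 15 in total) left 15259 genes with 99.98% of the counts. Tests were edgeR 4.0.16 quasi-likelihood fits in R 4.3.3 with TMM scaling, 1 coefficient per group, robust estimation and 18 residual degrees of freedom. Depth ran from 43.6 to 62.1 M counts per library. Errors are SD over the 4 libraries of a group, or SE from the fit over all 24 libraries. The p-values were adjusted by Benjamini-Hochberg over these genes and called under 0.05. The alternatives were RLE scaling, no filter (23565 genes), DESeq2 1.42.0, only the groups compared, a replicate block, limma 3.58.1 on log2 TPM with pseudocounts of 1 and 0.1 (14932 genes) and with no filter (22880 genes), the 100 most abundant genes left out of the scaling, the means of 3 cell-type lists as covariates, and each library left out. Added after seeing the data were TPM centred on the median gene, an effective-length offset (14625 genes), and leaving out 3 libraries rich in B cell or muscle RNA. The 3 libraries were replicates 1 and 2 of KO on n6 and replicate 3 of WT on SFA. The fit was tested on simulated data before use.

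Members and lists were chosen with earlier results of these data known. Named members follow a rule: the 3 largest rises in KO on each diet, the 5 smallest p-values of the average and of the interaction, the largest changes of the diet comparisons, the extremes of TPM, the S18 paralogues and Mrps36. Mrps22, Mrpl50, Mrpl22, the neighbouring gene pairs, the members called on no diet, the motif-binding factors, Gabpb1 and Myc are outside that rule and were named after their values were seen. Motifs and promoters come from RefSeq on GRCm38.p6. Of the replicate numbers, no comparison had every pair correlated above 0.1, so they were not treated as pairs.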

Additional observations from a re-analysis of the deposited data

Results flagged for a closer look

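Values that stood apart from their group were looked for in the 6 groups among the 23 named members and in the mean level of all members. In 6 of the resulting 144 groups of 4 libraries, 1 library lay far from the other 3, about the share (1 in 20) that chance flags. Mrpl12 had 60.3 CPM in replicate 2 of KO on SFA, and Mrps24 had 20.1 CPM in the same library, both below the other 3. Mrpl33 had 33 CPM in replicate 4 of KO on n3, also low. In WT, Mrpl58 had 16.3 CPM in replicate 3 on n3, Mrps21 had 25.8 CPM in replicate 1 on n6 and Mrps18a had 18.7 CPM in replicate 3 on n6, each the lowest of its group. The effect of KO on Mrpl58 differed among diets (edgeR adjusted p = 0.0403 for the interaction), being 0.31 on n3, 0.05 on n6 and 0.02 on SFA on the log2 scale. The pseudogene Mrpl23-ps1, left out by the name rule, had a median of 700 counts per library.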

How the results depend on the processing

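The settings that moved most results were those on deposited TPM. With log2(TPM + 1), log2(TPM + 0.1) and log2(TPM + 1) without a filter, the members called in either direction for KO against WT were 21, 21 and 21 on n3, 26, 26 and 25 on n6, 22, 22 and 19 on SFA and 37, 37 and 33 in the average. Medians were 0.05, 0.06 and 0.05 on n3 and reversed to -0.05 on n6, -0.03 on SFA and -0.001 in the average in each. For n6 against SFA the calls were 5, 5 and 5 in KO (median -0.02) and 6, 6 and 5 in WT (-0.01, -0.02 and -0.01), for n3 against n6 11, 11 and 8 in KO (0.08) and 5, 4 and 4 in WT (reversed to -0.02, -0.03 and -0.02), and for the interaction 3, 3 and 2. With log2(TPM + 0.1), 3821 and 5921 of 14932 genes were called for n6 against SFA in KO and WT. For n3 against n6 these counts were 3404 and 3658, and for the interaction 771. On this scale the estimate in KO also turned negative for Mrps5 on n3 (-0.01, or -0.02 with 0.1), Mrpl17 on n6 (-0.07), Mrpl58 on SFA (-0.16) and in the average (-0.08), Mrps24 on n6 (-0.13) and in the average (-0.13), Mrpl43 (-0.06), Mrpl53 (-0.02) and Mrpl33 (-0.14, average -0.04) on n6, Mrps6 on n3 (-0.02, average -0.07), Mrps21 in the average (-0.02), Mrpl47 on SFA (-0.14, or -0.15 with 0.1), Mrps18a on n6 (-0.13, average -0.06), Mrps18c on n3, n6 and SFA (-0.07, -0.13 and -0.01, average -0.07) and Mrps36 on n3 (-0.02, average -0.11). The TPM total is fixed per library; why the median gene is lower in KO on that scale was not tested. With TPM centred on the median gene, 8 members were called for n3 against n6 in WT.

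With the 3 cell-type lists as covariates, 17 members were called for n6 against SFA in KO and 9 for n3 against n6 in KO. Of all 15259 tested genes, 2300 and 615 were called in that fit. Without the libraries rich in B cell or muscle RNA, which leaves fewer libraries of KO on n6, the members called were 8 and 23. With only the groups compared the second was 38. For n3 against SFA in KO, 0 were called with covariates, the length offset, centred TPM, no filter, only the groups compared, the replicate block or without those libraries, and 2 with DESeq2, which also called 2 in WT. The interaction called 0 with covariates, no filter, the replicate block or without those libraries, and 4 with DESeq2; the cause was not tested.

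With a replicate block, 72, 42, 40 and 70 members were called on n3, n6, SFA and in the average, 35 and 56 for n6 against SFA in KO and WT, and 68 and 12 for n3 against n6. The numbers did not pair the libraries (highest correlation 0.237).

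With 1 library left out at a time, the calls for KO against WT ran from 67 to 74 on n3 (medians 0.26 to 0.33), 38 to 45 on n6 (0.16 to 0.18), 27 to 47 on SFA (0.12 to 0.18) and 68 to 72 in the average (0.19 to 0.23). For n6 against SFA they ran from 16 to 57 in KO (-0.20 to -0.14) and 31 to 65 in WT (-0.23 to -0.17). For n3 against n6 they ran from 37 to 74 in KO (0.18 to 0.26) and 7 to 16 in WT (0.09 to 0.13), for n3 against SFA from 0 to 6 in KO (0.02 to 0.10) and 0 to 1 in WT (-0.11 to -0.06), and for the interaction from 0 to 18. The counts of all genes called in these fits are not given here. For single named members, 2343 other values kept direction and side of the threshold, 51 passed it only under the alternative and 186 only in the fit reported.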
